A study of Mus musculus with 2 samples.

Results

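The 10 genes described here belong to the MHC class I pathway and were followed across the cell classes of mouse colon tumours and between a library with and a library without intestinal Cre. They are the heavy chains H2-K1 and H2-D1, the light chain B2m, the peptide transporter subunits Tap1 and Tap2, the tapasin gene Tapbp, the immunoproteasome subunits Psmb8, Psmb9 and Psmb10, and the transactivator Nlrc5. The genes were chosen by name from the pathway, and all 10 of 10 were found among the 55357 genes of both matrices. Tissue came from colon tumours and was profiled by single-cell RNA sequencing, with 1 library per genotype. The library labelled KO (ECM1Flox/Flox, Villin-Cre) carries floxed Ecm1 alleles and Cre driven by the Villin promoter, which is active in intestinal epithelium, so a deletion is aimed at epithelial cells and not at immune cells. The library labelled WT (ECM1Flox/Flox) has those floxed alleles as well but lacks the transgene. How many animals went into a library, their age, the tumour model and the flanked exons were not stated in the labels. Neither strain nor H2 haplotype was given.

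Class I molecules show peptides from inside the cell to CD8 T cells and, by their presence, hold back natural killer cells. The immunoproteasome replaces the catalytic subunits of the constitutive proteasome (Psmb8 for Psmb5, Psmb9 for Psmb6, Psmb10 for Psmb7) and cuts the peptides. The TAP transporter carries them into the endoplasmic reticulum, tapasin bridges the transporter and the heavy chain, and B2m must bind the heavy chain before the complex reaches the surface. Nlrc5 acts on class I promoters through a conserved module of X and Y boxes, and most genes of the pathway respond to interferons. Loss of the pathway in tumour cells is a known route of escape from CD8 T cells.

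The promoters of H2-K1, H2-D1, B2m and Tap1 are shown because they carry these elements and because the heavy chains and B2m share one arrangement of them. RefSeq windows (GRCm38.p6, 300 bases each, transcript start included) were at hand for 8 of the 10 genes, and none was at hand for Tap2 and Nlrc5. Capitals mark matches, on either strand, to GAANNGAAA (an interferon response element), an NF-kB element, TGACG (the core of the X2 box) and CCAAT (the Y box). The windows are, 5′ to 3′, H2-K1 at chr17:34000298-34000597 on the minus strand, H2-D1 at chr17:35262844-35263143 on the plus strand, B2m at chr2:122147437-122147736 on the plus strand and Tap1 at chr17:34187306-34187605 on the plus strand.
H2-K1: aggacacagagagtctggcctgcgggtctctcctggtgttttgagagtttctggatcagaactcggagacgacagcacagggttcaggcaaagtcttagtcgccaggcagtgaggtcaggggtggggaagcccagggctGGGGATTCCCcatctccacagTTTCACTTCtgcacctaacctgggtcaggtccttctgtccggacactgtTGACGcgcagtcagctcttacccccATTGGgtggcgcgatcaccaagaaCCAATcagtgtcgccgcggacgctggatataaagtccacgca
H2-D1: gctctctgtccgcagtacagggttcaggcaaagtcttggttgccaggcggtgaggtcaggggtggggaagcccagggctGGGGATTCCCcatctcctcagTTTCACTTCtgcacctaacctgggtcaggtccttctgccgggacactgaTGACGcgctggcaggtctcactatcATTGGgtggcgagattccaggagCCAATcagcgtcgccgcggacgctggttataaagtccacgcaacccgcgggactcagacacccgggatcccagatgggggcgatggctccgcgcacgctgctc
B2m: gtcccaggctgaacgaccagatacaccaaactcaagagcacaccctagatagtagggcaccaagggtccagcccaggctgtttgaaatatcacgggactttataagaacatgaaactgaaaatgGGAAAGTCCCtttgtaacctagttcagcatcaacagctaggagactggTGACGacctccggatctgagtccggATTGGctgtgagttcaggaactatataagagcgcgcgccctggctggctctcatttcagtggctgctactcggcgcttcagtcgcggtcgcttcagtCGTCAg
Tap1: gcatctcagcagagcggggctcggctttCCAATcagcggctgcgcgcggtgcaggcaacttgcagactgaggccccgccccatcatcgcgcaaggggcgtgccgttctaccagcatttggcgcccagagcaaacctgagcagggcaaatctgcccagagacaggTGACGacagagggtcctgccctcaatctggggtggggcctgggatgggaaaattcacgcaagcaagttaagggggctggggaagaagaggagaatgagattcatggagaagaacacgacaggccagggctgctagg
H2-K1 and H2-D1 held all 4 motifs, which 11 of 27025 windows did (0.0407%). B2m held the NF-kB, X2 and Y letters. The interferon pattern was searched with exactly 2 free bases after GAA, so elements with other spacing, in B2m or elsewhere, are not marked or counted. Tap1 held X2 and Y letters, far apart and in the opposite order, and 275 of its 300 bases are also part of the window of Psmb9, which is transcribed the other way. In H2-K1, H2-D1 and B2m the TGACG and the ATTGG (the Y box read on the other strand) start exactly 25 bases apart. That spacing was searched for after it was seen in these genes: 26 of all windows hold it (0.0962%), among them the non-classical class I gene H2-M3, and none of the windows of the other 5 genes does. Singly, the interferon motif was in 7.56% of windows, NF-kB in 4.71%, X2 in 21.0% and Y in 37.9%. A match is a description of the letters and not a measured site.

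The library labelled KO held 4233 cells and the library labelled WT 8262 after filters, with medians of 7950 and 2706 unique molecular identifiers (UMIs, counted molecules) per barcode before them. The libraries also differ in sex genes (Xist 103646 and 7 UMIs, Ddx3y 0 and 6175) and share 17 cell barcodes. Ecm1 itself did not have a lower level in epithelial-like cells with the KO label (40.5 against 34.2 CPM, ratio 1.18, 1.10 to 1.28), so the groups are named by their labels only. Cells were clustered and named from marker lists. Left out of the clustering were the 10 genes, the related genes compared below unless they are markers, and sex, ribosomal and mitochondrial genes. At least 50 cells in each library were found for 7 classes, with epithelial-like cells at 2465 and 2226, neutrophil-like at 200 and 2240, monocyte/macrophage-like at 520 and 1343, T-like at 334 and 1392, B-like at 136 and 267, plasma-like at 134 and 137, and mast-like at 71 and 262. Values are UMIs summed per class and library scaled to counts per 1000000 of that sum (CPM). Pairs of values are given with the library labelled KO first, and ranges in brackets are 95% intervals of counting error. With 1 library per genotype there is no test, and the spread between animals is unknown. A gene is counted as lower or higher where the ratio of CPM passes 1.5-fold with at least 50 summed UMIs, which is a rule of size.

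The level of most of these genes differed more between cell classes than between libraries. Of the 10 genes, 7 were highest in T-like cells in both libraries and 7 were lowest in epithelial-like cells in both, among the 7 classes. H2-K1 stood at 4008 and 3647 CPM in T-like cells, at 1892 and 1725 in B-like, at 1390 and 1451 in monocyte/macrophage-like, at 1154 and 866 in plasma-like, at 563 and 730 in neutrophil-like, at 549 and 593 in mast-like, and at 462 and 453 in epithelial-like cells. The order of the classes was the same in both libraries, and the T-like value was 8.68 and 8.05 times the epithelial-like one. Neutrophil-like and mast-like cells are neighbours whose counting intervals overlap in the library labelled KO, where they gave 342 and 254 UMIs.

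B2m, the light chain that every class I heavy chain needs, followed the same order at both ends. It was at 2485 and 2942 CPM in T-like, 1927 and 2214 in plasma-like, 1793 and 2534 in monocyte/macrophage-like, 1322 and 1400 in B-like, 813 and 1255 in neutrophil-like, 467 and 787 in mast-like and 186 and 254 in epithelial-like cells. Plasma-like and monocyte/macrophage-like cells exchanged places between the libraries. The factor between T-like and epithelial-like cells was 13.4 and 11.6. Per cell the picture differs, because an epithelial-like cell gave far more UMIs in all (medians 18551 and 8489, against 3103 and 2297 in T-like cells): 4.33 and 3.37 B2m UMIs were counted per epithelial-like cell and 8.94 and 8.27 per T-like cell. For H2-K1 those numbers were 10.8 and 6.02 per epithelial-like cell and 14.4 and 10.3 per T-like cell, so the gap between the classes was smaller per cell than in CPM.

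H2-D1 had an order of its own. Neutrophil-like cells were at 1893 and 1637 CPM, next to T-like cells at 1885 and 1893, and these were the top 2 classes in both libraries. B-like cells (1095 and 1029) and monocyte/macrophage-like cells (984 and 1137) came next and exchanged places between the libraries, as did mast-like (417 and 438) and plasma-like cells (403 and 459). Epithelial-like cells were lowest, at 295 and 342. Within the pair, H2-K1 made up 22.9% and 30.8% of the UMIs of neutrophil-like cells (342 of 1492 and 3291 of 10674), and between 56.1% and 74.1% in the other 6 classes. A neutrophil-like cell therefore had more H2-D1 than H2-K1 molecules counted, and every other class the reverse, in both libraries. The 2 genes are near-identical paralogs with a wide family of relatives, so reads that fit several of them may have been lost or moved, and the share is one of counted molecules and not of protein.

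**Figure D1:**
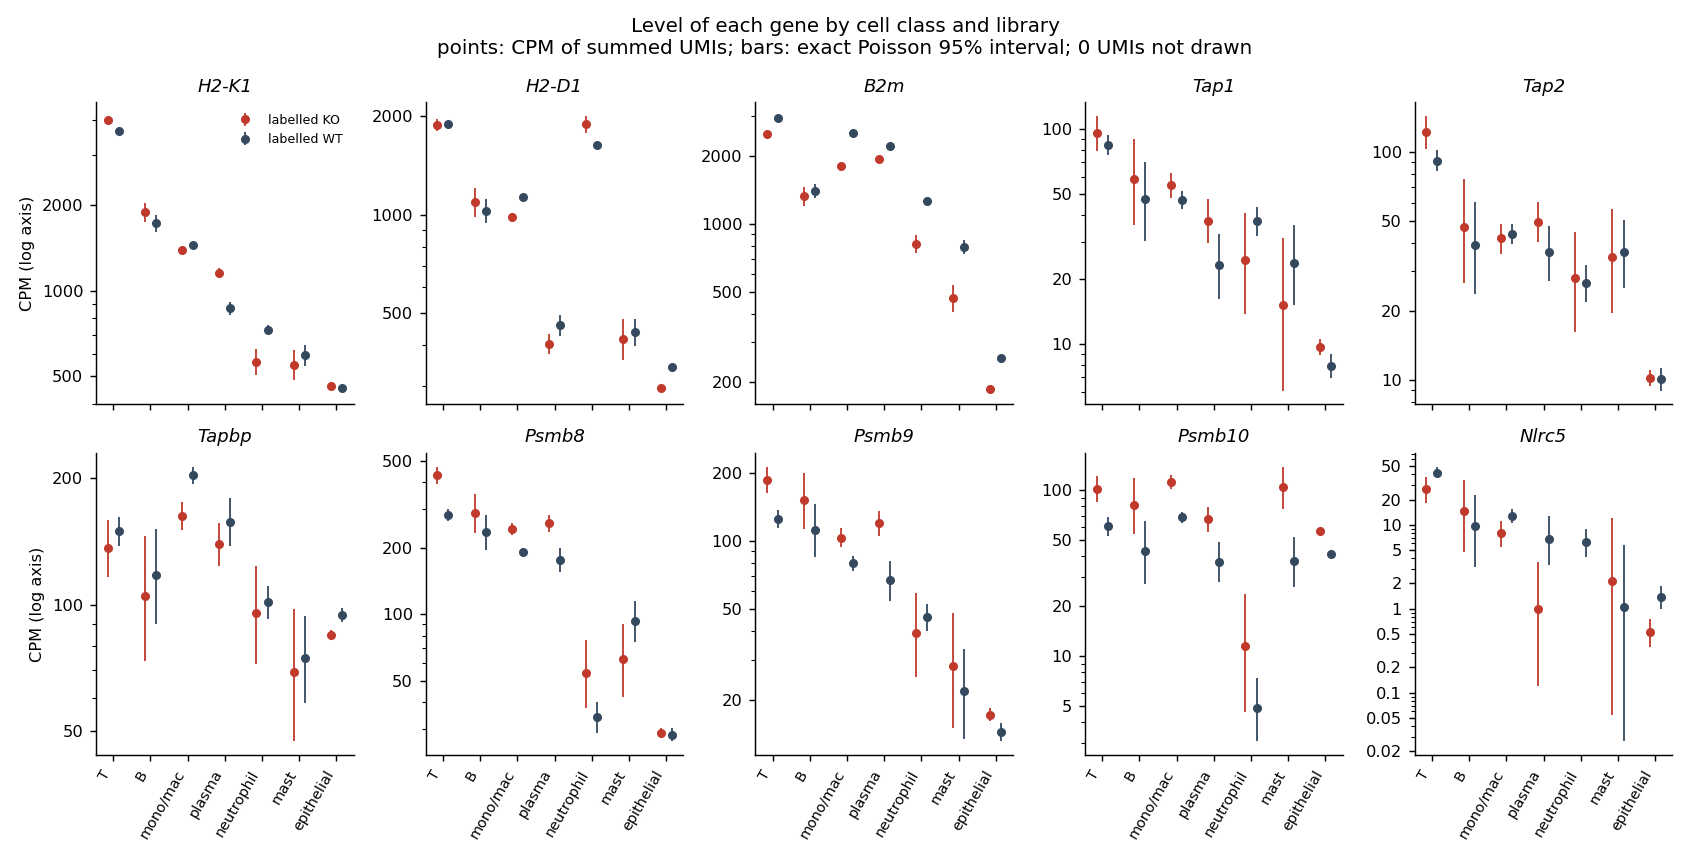
CPM (log axis, own scale in each panel) of the 10 genes in 7 cell classes, red for the library labelled KO and dark for that labelled WT, with exact Poisson 95% intervals. For 7 genes the epithelial-like points are the lowest in both libraries, while Tapbp is lowest in mast-like and Psmb10 in neutrophil-like cells, and H2-D1 has neutrophil-like cells level with T-like cells in the library labelled KO (1893 and 1885 CPM) and below them in that labelled WT (1637 and 1893).

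The transporter genes were low throughout. Tap1 ranged from 95.7 and 84.6 CPM in T-like cells to 9.68 and 7.90 in epithelial-like cells. Tap2 ranged from 122 and 91.7 CPM down to its lowest level in the same classes, where epithelial-like cells gave 586 and 299 UMIs. Tapbp was spread most evenly, from 162 and 203 CPM in monocyte/macrophage-like cells to 69.2 and 74.8 in mast-like cells, a factor of 2.35 and 2.72, and epithelial-like cells, at 84.8 and 94.5, were not its lowest class.

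The immunoproteasome subunits split in their distribution. Psmb8 was at 430 and 283 CPM in T-like, 289 and 237 in B-like, 259 and 178 in plasma-like, 244 and 191 in monocyte/macrophage-like, 62.7 and 93.5 in mast-like, 54.3 and 34.2 in neutrophil-like, and 29.0 and 28.3 in epithelial-like cells. Psmb9 lay between 186 and 125 CPM in T-like and 17.2 and 14.5 in epithelial-like cells. Psmb10 did not have that slope: epithelial-like cells held 56.4 and 40.9 CPM against 102 and 60.3 in T-like cells, and the lowest class was neutrophil-like, at 11.5 and 4.88 CPM from 7 and 22 UMIs. Conventional dendritic-like cells, of which the library labelled KO has 42, had the highest Psmb8 of the classes with over 20 cells in each library, at 864 and 520 CPM.

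Nlrc5 was sparse in every class. It was at 26.6 and 41.9 CPM in T-like, 14.6 and 9.80 in B-like (5 UMIs each) and 8.01 and 12.7 in monocyte/macrophage-like cells. In epithelial-like cells 30 and 41 UMIs gave 0.522 and 1.38 CPM, out of 57453249 and 29607516 UMIs in all. Neutrophil-like cells had 0 UMIs in the library labelled KO, which allows up to 3, and 28 in that labelled WT.

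Across the 17 class and library profiles with at least 50 cells, most of the 10 genes varied together. Pearson's r of each gene with the mean of the other members, on log2(CPM + 10), was 0.94 for Tap1, 0.92 for H2-K1, 0.91 for Psmb8 and Psmb9, 0.90 for Tap2, 0.83 for B2m, 0.82 for Nlrc5 and 0.68 for Tapbp. H2-D1 (0.57) and Psmb10 (0.31) stood apart. Among 12288 other genes the profiles most like the mean of the members were those of Phf11b (0.91), the class I gene H2-Q7 (0.90), Mir155hg, Rftn1 and Il21r (0.85 each). Profiles of one library share their sequencing and any free RNA, so these values are descriptions.

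Inside the epithelium, level went with cluster. Of 9 epithelial-like clusters, 7 had at least 50 cells in both libraries: a surface cluster (led by Clca4b, Saa1 and Krt20), one of Paneth-like defensin markers, a Nox1 Fut9 progenitor cluster, a mitotic cluster, a Tgm4 S100g Gkn3 cluster, and 2 that stayed unnamed under a naming rule added after the data were seen, called here by leading genes as the Fst cluster and the Pnliprp2 cluster. Both unnamed clusters scored highest on a list of Wnt-high markers (1.19 for the Fst and 1.46 for the Pnliprp2 cluster, 8 markers detected in each). None of those markers was among their leading genes within the epithelium. Against all cells, Wif1 was among the leading genes of the Fst cluster and Notum among those of the Pnliprp2 cluster, and both are on that list. H2-K1 was at 652 and 859 CPM in the surface cluster and 792 and 695 in the Paneth-like one. It was at 562 and 513 in the Pnliprp2 cluster, 530 and 427 in the Fst cluster, 395 and 340 in progenitors, 341 and 233 in mitotic cells and 269 and 238 in the Tgm4 cluster. Among these 7, the surface and Paneth-like clusters were thus the top 2 in both libraries and the mitotic and Tgm4 clusters the bottom 2. Too few cells of the library labelled WT kept a goblet cluster (160 and 35 cells) and an absorptive cluster (226 and 31) out of the 7. Their H2-K1 was at 656 and 671 CPM and at 570 and 496 CPM, so goblet-like cells were level with surface cells in the library labelled KO.

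H2-D1 was highest on the surface in both libraries (539 and 709 CPM) and lowest in the Tgm4 cluster of both (181 and 188). B2m was highest in the Pnliprp2 cluster, at 292 and 407 CPM, and lowest in the Tgm4 cluster, at 99.1 and 130. The surface cluster also had the highest Psmb8 (44.4 and 64.3), Psmb10 (104 and 94.9), and Tap1, Tap2 and Psmb9 of the 7 in both libraries. Its share of the epithelial-like cells was unequal, 86 of 2465 against 544 of 2226, and its cells were of unequal depth, with medians of 28981 and 2859 UMIs. Sums over all epithelial-like cells carry that difference in make-up. The 10 genes and the interferon-stimulated and 20S lists are given by cluster as well, and most other epithelial values are sums only.

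Between the libraries, epithelial-like cells had 1 of 10 genes lower past 1.5-fold, Nlrc5, and 0 higher, where 16.4% and 10.2% of 15521 genes with at least 50 UMIs were lower and higher. The Nlrc5 ratio was 0.377 (0.227 to 0.619), from 30 and 41 UMIs. In summed UMIs H2-K1 did not differ by more than its counting error (462 and 453 CPM, ratio 1.02, 0.998 to 1.04). That ratio depended on the processing. It was 0.804 with cells thinned to 1000 UMIs and 1.15 without the surface cluster, and 2 of 11 alternatives were below 1. B2m was lower (186 and 254, 0.733, 0.712 to 0.755), H2-D1 less so (295 and 342, 0.861, 0.840 to 0.883), and Psmb10 was higher (56.4 and 40.9, 1.38, 1.29 to 1.48). Over the 11 alternatives B2m lay between 0.726 and 0.835. H2-D1 lay between 0.708, with equal weight per cell, and 0.980, without the surface cluster. The other ratios were 0.897 for Tapbp, 1.01 for Tap2, 1.02 for Psmb8, 1.19 for Psmb9 and 1.22 for Tap1. The median log2 ratio of the 10 genes was 0.02, against -0.02 for all 15521 genes.

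Without the surface cluster, a choice made after seeing its unequal share, 2 genes were higher past 1.5-fold, Tap1 at 1.69 and Psmb10 at 1.64. Nlrc5, at a ratio of 0.424, was still the 1 gene that was lower. By cluster, 62 pairs of a gene and a cluster had 50 UMIs, and 0 were lower past 1.5-fold while 13 were higher. Over all genes 12.1% of 71827 such pairs were lower and 12.6% higher. The 13 were Tap1 in 4 clusters, Tap2 in 3, Psmb10 in 3, Psmb8 in 2 and Psmb9 in 1, so all were transporter or immunoproteasome genes and none was a heavy or light chain. For 6 of them, 3 of Tap1 and 3 of Tap2, the interval included 1: in mitotic cells Tap2 had 59 and 11 UMIs and a ratio of 1.74 (0.904 to 3.67).

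**Figure D2:**
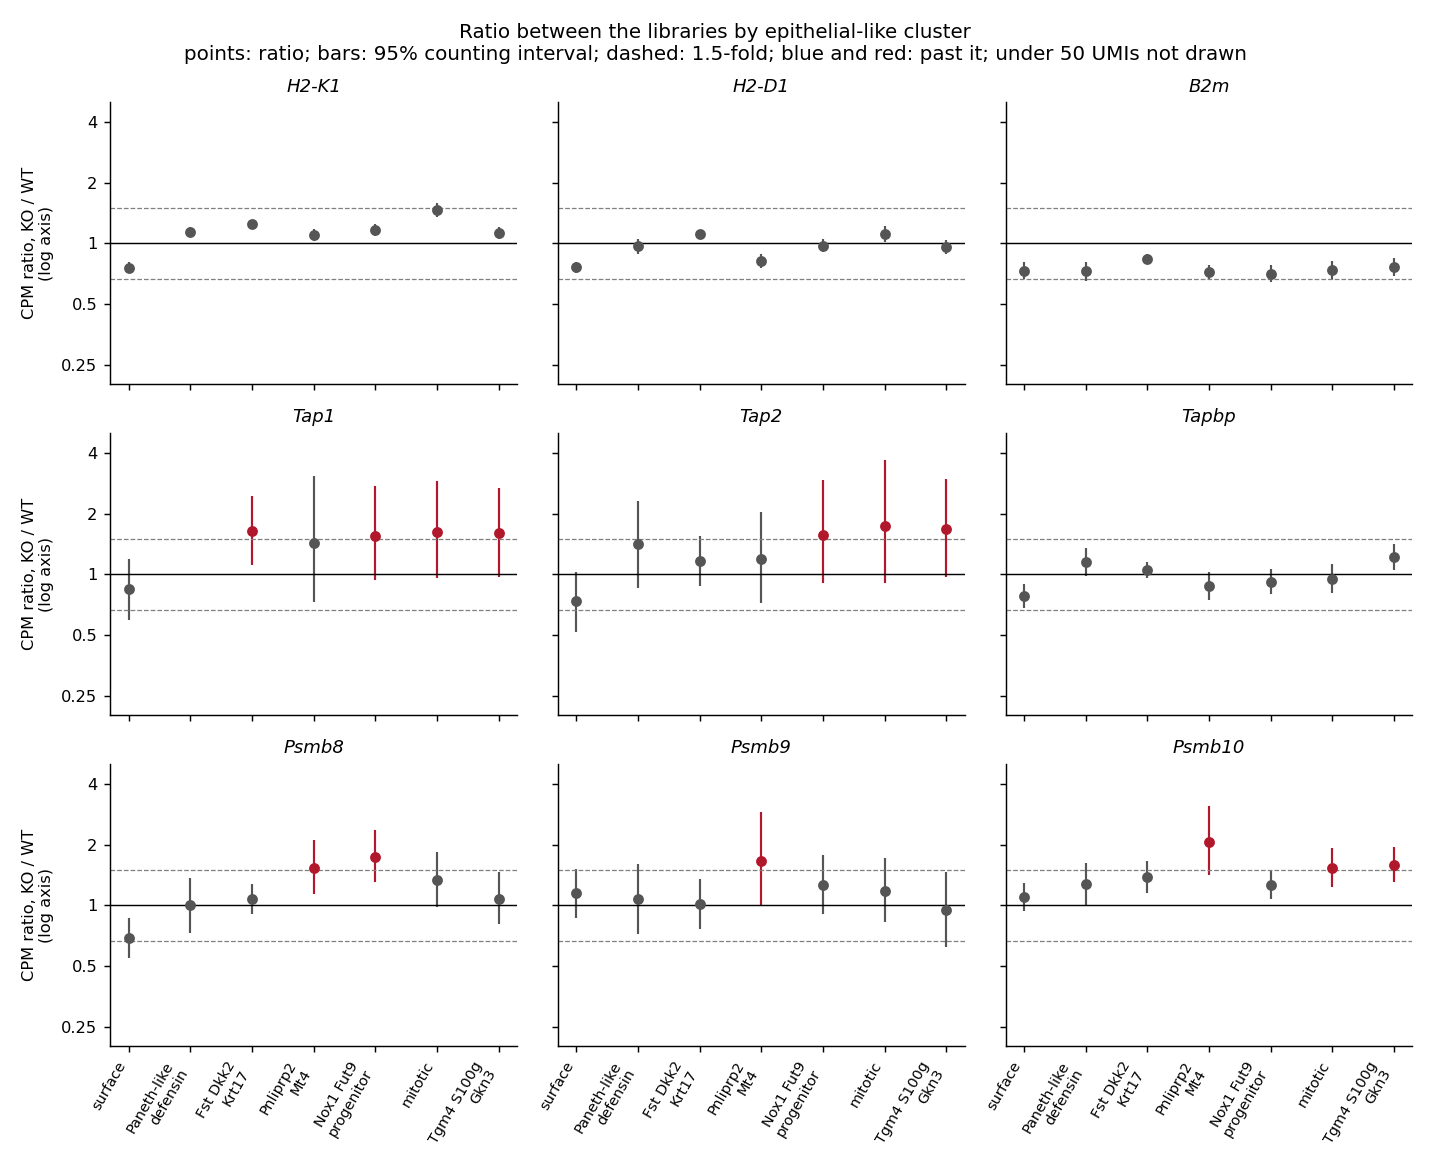
Ratio of CPM (log axis, library labelled KO over that labelled WT) in 7 epithelial-like clusters for 9 genes, with 95% counting intervals and dashed lines at 1.5-fold. B2m lies below 1 in all 7 clusters (0.708 to 0.840), Psmb10 above 1 in all 7 (1.10 to 2.05), and H2-K1 above 1 in 6 and at 0.759 in the surface cluster.

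B2m was the most even of the differences. Its ratio was below 1 in 7 of 7 epithelial-like clusters, between 0.708 and 0.840, and every interval left out 1. For the cluster with the most B2m UMIs, the Fst cluster, 277 and 329 CPM gave 0.840 (0.793 to 0.889). Progenitors, at 127 and 180 CPM, gave 0.708 (0.644 to 0.780). With each cell weighted equally the ratios were still below 1 in 7 of 7, at up to 0.988. With each cell thinned to 1000 UMIs they were below 1 in 3 of the 6 clusters that kept 50 UMIs.

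In summed UMIs the heavy chain H2-K1 and its partner B2m lay on opposite sides of 1 in most clusters, and the side depended on how cells were weighted or thinned. H2-K1 was above 1 in 6 of 7 clusters, with every one of those intervals above 1: 1.46 (1.35 to 1.59) in mitotic cells, at 341 and 233 CPM, was the highest, followed by 1.24 in the Fst cluster, 1.16 in progenitors, 1.14 in Paneth-like, 1.13 in the Tgm4 and 1.10 in the Pnliprp2 cluster. With each cell weighted equally H2-K1 was below 1 in 2 of 7 clusters (0.799 to 1.43). With cells thinned to 1000 UMIs H2-K1 was below 1 in 4 of 7 clusters (0.856 to 1.83) and H2-D1 in 3 of 7. Thinned sums of single clusters are small and have no interval, so they do not show whether the summed differences of a cluster hold. Over all epithelial-like cells, which carry the unequal make-up, the thinned H2-K1 ratio was 0.804. Thinned mitotic cells had means of 0.759 and 0.644 UMIs per cell over H2-K1, H2-D1 and B2m together. In the unthinned sums surface cells were the exception, at 652 and 859 CPM, a ratio of 0.759 (0.715 to 0.805). H2-D1 lay between them: its ratio was 0.760 in surface cells and 0.819 in the Pnliprp2 cluster, 1.11 in both the mitotic and the Fst cluster, and within counting error of 1 in the remaining 3. As a share of the H2-K1 and H2-D1 UMIs, H2-K1 was 61.2% and 54.6% in mitotic cells, 62.3% and 55.2% in the Pnliprp2 cluster, and 54.7% and 54.8% in surface cells. Surface cells thus had less of both heavy chains, of B2m and of Tapbp (0.780, 0.677 to 0.896) in the library labelled KO, and 7 of their 9 measured genes were below a ratio of 1.

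The immune classes showed the same pair of opposite differences, low B2m and high Psmb10. B2m had a ratio below 1 in 7 of 7 classes, with 6 intervals leaving out 1: 0.593 in mast-like, 0.648 in neutrophil-like, 0.708 in monocyte/macrophage-like, 0.733 in epithelial-like, 0.844 in T-like, 0.870 in plasma-like and 0.945 (0.838 to 1.06) in B-like cells. With an estimate of free RNA subtracted the mast-like ratio was 0.987. With ratios centred on the median of all genes the B-like ratio was 1.005. Of the 1785 genes with 50 UMIs in all 7 classes, 25.1% were below 1 in every class and 18.0% above, so a gene with 1 direction in all classes is common here. Tapbp was also below 1 in 7 of 7, at 0.80 to 0.942, and 2 of its intervals left out 1. Psmb10 was above 1 in 6 of the 6 classes that had 50 UMIs, at 1.38 in epithelial-like, 1.64 in monocyte/macrophage-like, 1.68 in T-like, 1.80 in plasma-like, 1.89 in B-like and 2.78 in mast-like cells, all intervals leaving out 1.

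**Figure D3:**
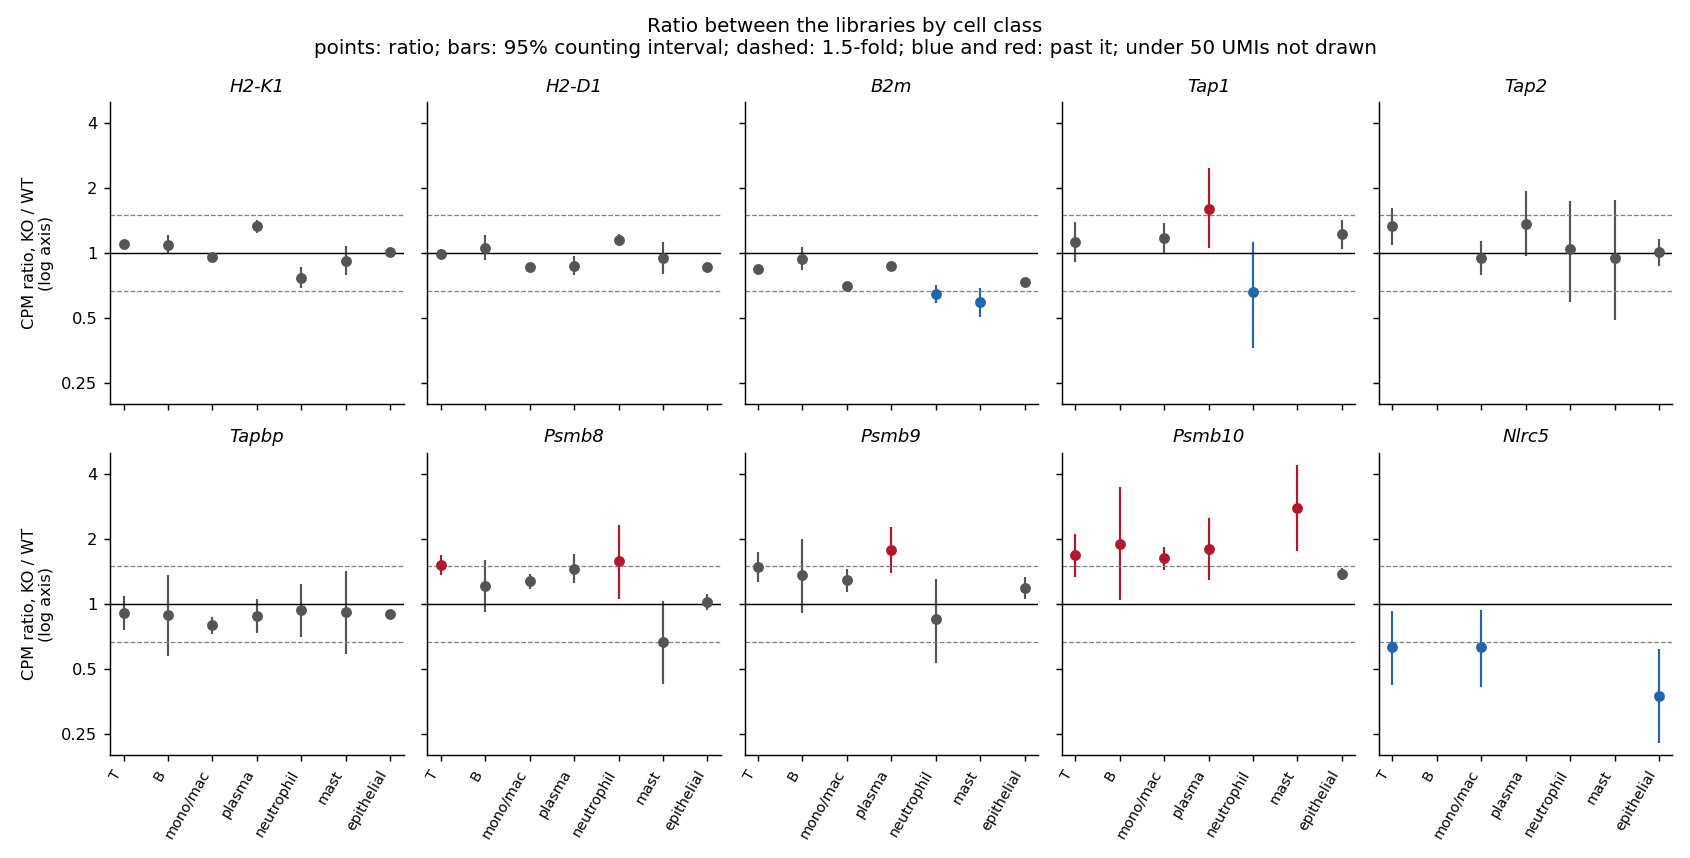
Ratio of CPM (log axis, library labelled KO over that labelled WT) of the 10 genes in 7 classes, with 95% counting intervals, dashed lines at 1.5-fold, and colour for ratios past it. B2m is below 1 in 7 of 7 classes, Psmb10 above 1 in 6 of 6 and Nlrc5 below 1 in the 3 classes where it had 50 UMIs.

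In T-like cells 1 of 10 genes was lower past 1.5-fold and 2 were higher, where 22.8% and 10.0% of 8198 genes were. Nlrc5 was lower, at 26.6 and 41.9 CPM (0.636, 0.421 to 0.933; 32 and 164 UMIs), but thinned to 1000 UMIs per cell its ratio turned to 1.18, and with ratios centred or cells weighted equally it was within 1.5-fold (0.694 and 0.699). Psmb8 was higher, at 430 and 283 CPM (1.52, 1.37 to 1.69), and so was Psmb10, at 102 and 60.3 (1.68, 1.34 to 2.10). Psmb9 was just inside the rule at 1.49 (1.26 to 1.75), so the 3 immunoproteasome subunits lay close together. Neutrophil markers summed to 206 and 570 CPM in T-like cells (9 of 10 lower in the library labelled KO, Csf3r, Cxcr2 and Trem1 at 0 there) and epithelial markers to 492 and 268 (1 of 10 lower), and their part in these ratios was not tested. H2-K1 was at 1.10 (1.06 to 1.14), H2-D1 at 0.996 (0.950 to 1.04), and Tap2 at 1.33 (1.09 to 1.62). Within CD8 T-like cells (51 and 159 cells) B2m was at 2108 and 2999 CPM, a ratio of 0.703 (0.627 to 0.786), and Psmb10 at 2.67 (1.57 to 4.52). In 1 of the regulatory T-like clusters (60 and 211 cells) the same genes had ratios of 0.814 and 2.03. Those regulatory cells held more H2-K1 than the CD8 cells did in both libraries, 5279 and 4882 against 2856 and 3046 CPM.

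Monocyte/macrophage-like cells had 1 of 10 genes lower, Nlrc5 (8.01 and 12.7 CPM, 0.633, 0.416 to 0.941), and 1 higher, Psmb10 (112 and 68.3 CPM, 1.64, 1.45 to 1.85), beside 17.2% and 15.0% of 9772 genes. Chil3 monocyte-like and C1q macrophage-like cells differed in the heavy chain: H2-K1 had a ratio of 0.818 (0.779 to 0.860) in the former, at 1310 and 1602 CPM, and of 1.10 (1.06 to 1.15) in the latter, at 1440 and 1303. B2m was lower in both, at 0.645 (0.618 to 0.674) and 0.740 (0.716 to 0.766). Of this class's cells, 239 of 520 and 874 of 1343 were of the Chil3 kind. Neutrophil markers were summed at 992 and 2221 CPM in the class, with 10 of 10 lower in the library labelled KO, and their part in these ratios was not tested.

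Neutrophil-like cells had 2 of 8 measured genes lower, B2m (813 and 1255 CPM, 0.648, 0.590 to 0.710) and Tap1 (24.7 and 37.3 CPM, 0.663, 0.363 to 1.12, from 15 and 168 UMIs), and 1 higher, Psmb8 (54.3 and 34.2 CPM, 1.59, 1.06 to 2.33, from 33 and 154 UMIs), beside 28.5% and 13.6% of 4752 genes. H2-K1 was at 563 and 730 CPM (0.771, 0.688 to 0.862) and H2-D1 at 1893 and 1637 (1.16, 1.09 to 1.23), so the heavy chains differed in opposite directions. The class is made of 3 clusters in unequal parts, 140, 47 and 13 cells against 1078, 946 and 216. With equal weight for the 2 larger clusters, the cluster of 13 and 216 cells left out, the count of lower genes was 1 and of higher genes 0. With the ratios centred on the median of all genes the count of lower genes was 0, since that median is -0.16 on the log2 scale here.

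Plasma-like cells had 3 of 9 measured genes higher, Tap1 (37.6 and 23.3 CPM, 1.61), Psmb9 (120 and 67.2, 1.78) and Psmb10 (66.6 and 37.0, 1.80), and 0 lower, beside 17.2% and 19.6% of 4160 genes. Thinned to 1000 UMIs per cell, Psmb10 was at 0.992. Their H2-K1 was at 1.33 (1.24 to 1.43), the highest of any class, while H2-D1 was at 0.877. Mast-like cells had 1 of 7 genes lower, B2m, and 1 higher, Psmb10, beside 22.9% and 29.4% of 3724 genes. With free RNA subtracted their B2m ratio was 0.987, so B2m was no longer past 1.5-fold. B-like cells had 0 of 7 lower and 1 higher, Psmb10 with 28 and 22 UMIs, beside 20.3% and 11.4% of 2497 genes.

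The constitutive catalytic subunits were set beside the immunoproteasome subunits, since each pair competes for 1 place in the particle. Psmb8 made up 14.3% (13.7 to 15.0) and 14.8% (13.9 to 15.8) of the Psmb8 and Psmb5 UMIs in epithelial-like cells, 63.7% and 63.4% in monocyte/macrophage-like cells, and 82.0% and 78.8% in T-like cells. The libraries differed little in this share, although they differed in the level of Psmb8 in T-like cells. Psmb9 made up 6.40% and 7.05% of its pair with Psmb6 in epithelial-like cells, and 58.8% and 60.5% in T-like cells. For Psmb10 the pair with Psmb7 did shift, from 30.4% (29.0 to 31.9) in the library labelled WT to 36.8% (35.8 to 37.8) in that labelled KO in epithelial-like cells, and from 44.3% (40.0 to 48.6) to 58.7% (51.6 to 65.4) in T-like cells. The surface cluster went the other way, at 55.7% (51.2 to 60.2) in the library labelled KO and 62.0% (57.9 to 66.0) in that labelled WT.

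Among epithelial clusters the Psmb8 share was 6.91% and 6.11% in the Tgm4 cluster and 12.6% and 8.13% in progenitors. The surface cluster differed most, at 24% (20.2 to 28.0) against 39.6% (35.7 to 43.6). Its Psmb8 was at 44.4 and 64.3 CPM, a ratio of 0.690 (0.548 to 0.865), while in progenitors it was at 28.2 and 16.2, a ratio of 1.74 (1.30 to 2.37). In mast-like cells too the share was lower in the library labelled KO, 34.5% (24.5 to 45.7) against 62.9% (54.5 to 70.9), from 84 and 143 UMIs of the pair. Such a share depends on Psmb5 as well. In mast-like cells Psmb5 was at 119 and 55.0 CPM (2.16, 1.45 to 3.21), while the ratio of Psmb8 was 0.671 (0.425 to 1.03). In the surface cluster the 14 constitutive 20S subunits summed to 3311 and 1892 CPM.

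**Figure D4:**
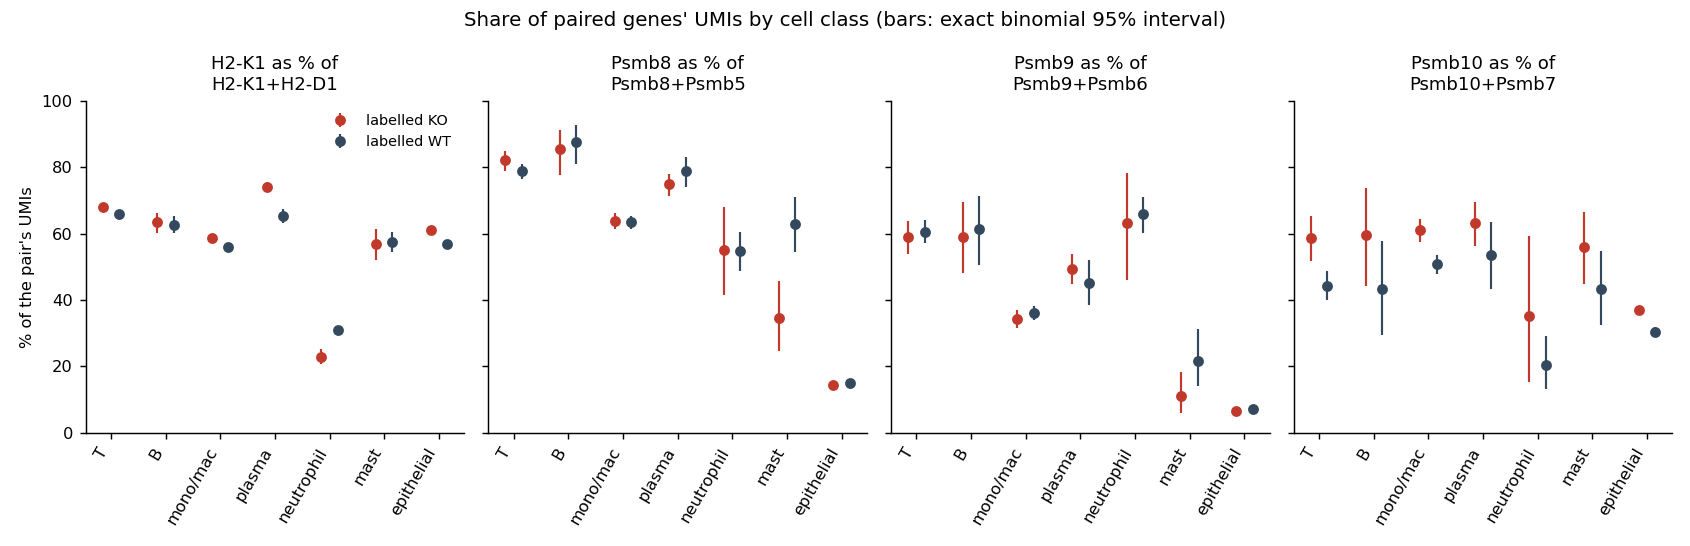
Share (%) of a pair's UMIs that belongs to the first gene, in 7 classes, red for the library labelled KO and dark for that labelled WT, with exact binomial 95% intervals. H2-K1 is at 22.9% and 30.8% in neutrophil-like cells and above 56% elsewhere, and Psmb8 is at 14.3% and 14.8% in epithelial-like against 82.0% and 78.8% in T-like cells.

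Genes around the pathway did not all share its small differences. Of 24 interferon-stimulated genes, 18 were lower past 1.5-fold in epithelial-like cells and 0 higher, with a median log2 ratio of -1.22: Ifit1, an antiviral gene, was at 12.6 and 62.5 CPM (0.202), Rsad2 at 4.96 and 21.7 (0.229), and the low Gbp5 (18 and 68 UMIs) and Cxcl9 (22 and 55) at 0.136 and 0.206. The class I genes, which respond to the same signals, had 1 of 10 lower in the same cells. The 2 lists share no gene. By cluster, interferon-stimulated genes had a median log2 ratio of -1.11 in surface cells (14 of 18 lower, 2 higher), -1.08 in the Pnliprp2 cluster (8 of 11 lower, 1 higher) and -0.54 in the Fst cluster (7 of 15 lower, 1 higher). It was -0.30 in mitotic cells (3 of 9 lower, 1 higher), -0.16 in the Tgm4 cluster (3 of 12 lower, 3 higher), -0.04 in progenitors (2 of 10 lower, 0 higher) and 0.07 in Paneth-like cells (0 of 6 lower or higher). The class I genes were at -0.40, 0.25, 0.15, 0.41, 0.17, 0.33 and 0.15 in those 7 clusters, in the same order.

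Beside these values, 10 of 10 neutrophil markers had lower values in the KO-labelled epithelial-like cells, with summed levels of 126 and 900 CPM (211702 and 215299 in neutrophil-like cells) and none at 0. Monocyte/macrophage markers were lower in 11 of 12 (276 and 340 CPM) and T markers in 7 of 10 (85.5 and 91.9). With an estimate of free RNA subtracted, B2m in epithelial-like cells had a ratio of 0.802 and H2-K1 of 1.06, and the part of these markers in the interferon-stimulated genes was not tested.

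**Figure D5:**
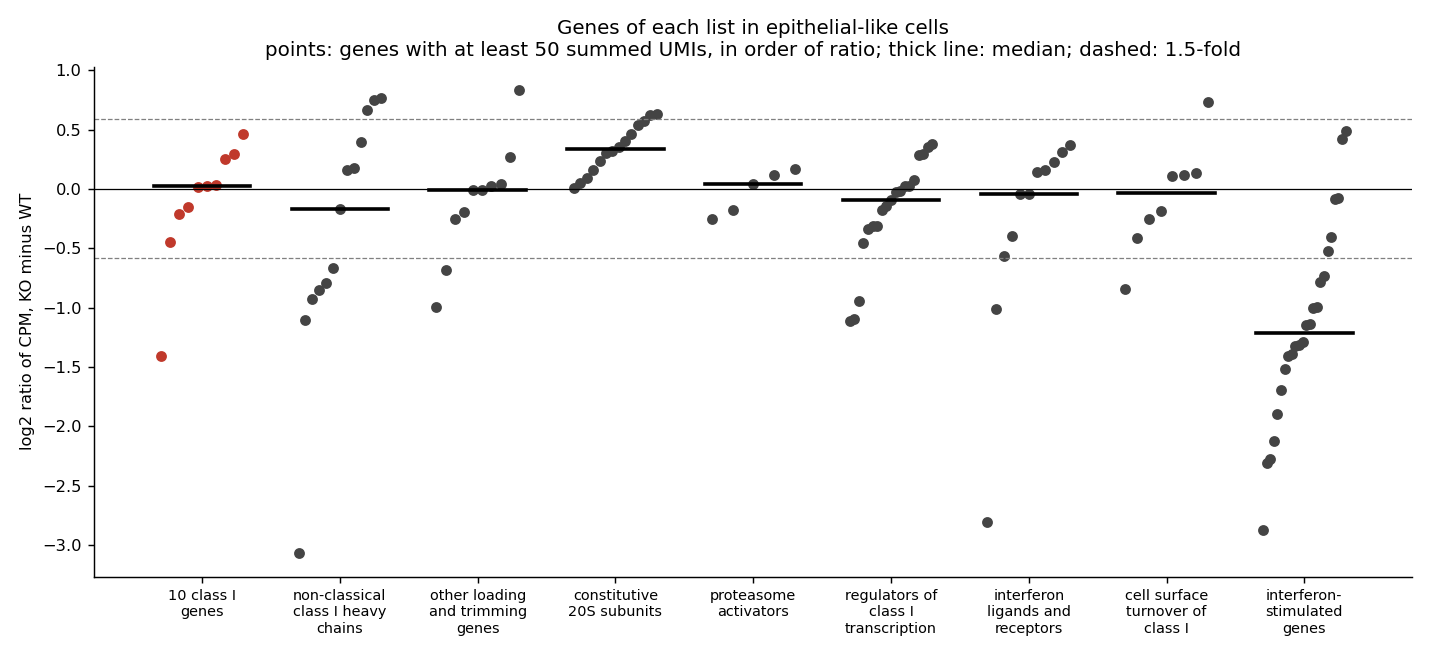
Log2 ratio of CPM (library labelled KO minus that labelled WT) in epithelial-like cells for genes of 9 lists with at least 50 summed UMIs, with list medians as thick lines and 1.5-fold dashed. The 10 class I genes lie around 0 (median 0.02), the constitutive proteasome subunits all above 0 (0.34), and the interferon-stimulated genes mostly below (-1.22).

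Interferon gamma itself, a T and natural killer cell cytokine, was lower in T-like cells of the library labelled KO, at 33.3 and 103 CPM (0.323, 0.228 to 0.448; 40 and 403 UMIs). The T-like class includes a natural killer-like cluster with 1 of its 334 cells in that library and 75 of 1392 in the other, and the part of this in the Ifng ratio was not tested. Irf1, a transcription factor that acts on class I promoters, had a ratio below 1 in 7 of 7 classes, at 0.806 in epithelial-like (53.1 and 66.0 CPM), 0.476 in T-like (87.4 and 184), 0.406 in neutrophil-like (110 and 272) and 0.342 in monocyte/macrophage-like cells (53.2 and 155). Of 19 regulators of class I transcription 3 were lower in epithelial-like cells and 0 higher: Stat2 at 9.85 and 21.0 CPM, the Y box factor subunit Nfya at 16.2 and 31.1, and Ciita, the class II counterpart of Nlrc5, at 26 and 29 UMIs. That share is near the 16.4% of all genes that were lower there. T-like cells had 8 of 18 lower, beside 22.8% of all genes, and monocyte/macrophage-like cells 6 of 19, beside 17.2%.

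The 14 constitutive 20S subunits were above a ratio of 1 in 14 of 14 cases in epithelial-like cells (2 past 1.5-fold, Psmb1 at 391 and 252 CPM and Psma1 at 209 and 136, median log2 ratio 0.34), in 13 of 14 in T-like cells (7 past 1.5-fold, median 0.63) and in 14 of 14 in mast-like cells (14 past 1.5-fold, median 1.09). Of all measured genes 10.2%, 10.0% and 29.4% were higher past 1.5-fold in those 3 classes. By cluster 11 of 14 were higher past 1.5-fold in surface cells (median 0.79), 5 in Paneth-like cells, 2 each in the Fst and Pnliprp2 clusters, and 0 in the Tgm4, progenitor and mitotic clusters. Over all genes 12.6% of pairs of a gene and a cluster were higher. The interferon-inducible activators Psme1 and Psme2 had ratios of 0.841 and 0.882 in epithelial-like cells. In loading and trimming, Erap1, the trimming peptidase (27.4 and 27.5 CPM), and Tapbpl, a tapasin relative (13.3 and 13.1), did not differ by more than counting error. Pdia3, the partner of tapasin in the loading complex, was higher (667 and 374 CPM, 1.78), Ero1a lower (35.2 and 70.0, 0.502), Lnpep lower (53.9 and 86.4, 0.624), and the chaperone Hspa5 within 1.5-fold (757 and 629).

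Among the non-classical heavy chains, H2-T23, which encodes Qa-1, a ligand of inhibitory receptors on natural killer and CD8 T cells, was below 1 in 7 of 7 classes: 22.9 and 49.0 CPM in epithelial-like (0.466, 0.432 to 0.503), 47.8 and 98.8 in monocyte/macrophage-like (0.484), 0.559 in neutrophil-like cells and 153 and 195 in T-like cells (0.787). Of 13 non-classical genes measured in epithelial-like cells 6 were lower and 3 higher, beside 16.4% and 10.2% of all genes. The higher ones, named after their values were seen, were H2-M3 (1.58), Cd1d1 (1.70) and Mr1 (1.68). The lower ones included H2-Q1 (12 and 52 UMIs), H2-Q6 at 0.526 and H2-Q2 at 0.555, relatives close enough in sequence that reads may be split among them or lost. Among genes of surface turnover, Susd6, part of a complex that sends class I to lysosomes, was lower (32.2 and 57.7 CPM, 0.558), the ubiquitin ligase gene Marchf9 higher (10.5 and 6.32, 1.66), and Wwp2 (0.750) and the autophagy receptor Sqstm1 (112 and 134 CPM, 0.837) within 1.5-fold.

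On the side that reads class I, Cd8a was at 67.4 and 48.0 CPM in T-like cells, a ratio of 1.40 (1.07 to 1.83) from 81 and 188 UMIs. CD8 T-like cells were 51 of 334 T-like cells in the library labelled KO and 159 of 1392 in the other, and the part of this in the Cd8a ratio was not tested. In epithelial-like cells 4 receptor genes reached 50 UMIs, and 3 of them were lower past 1.5-fold: Lilrb4a (0.383 and 3.48 CPM), Pirb (0.783 and 3.45) and Klrd1 (0.714 and 1.82). These are genes of myeloid and lymphoid cells, and the neutrophil and other marker sums above stand beside them.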

How the data were processed

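The deposited matrices hold whole UMI counts per gene and cell barcode, made by the authors with Cell Ranger 7.2.0 and GRCm39, per the submitters' processing notes. The labels' extraction text describes RNA from lysed tissue and no droplet step, so the chemistry is unknown. A barcode was kept if it had 200 genes or more and if mitochondrial genes made up less than 20% of its UMIs. Scrublet's own threshold marked 0.0456% and 0% of barcodes, so the cells with the highest scores were removed at 0.8% per 1000 barcodes (3.51% in the KO and 7.12% in the WT library). Cells of both libraries were clustered together (scanpy 1.11.5, 2000 variable genes, 30 components, 15 neighbours, Leiden resolution 1). The 10 genes, companion-list genes that are not markers, and sex, ribosomal and mitochondrial genes were left out of the clustering. Clusters were named from marker lists. A rule added after the data were seen leaves clusters unnamed when their leading genes go against a list. It also leaves subtypes unnamed when no marker of the list is among their leading genes. The 10 genes, the marker lists and the 9 companion lists were chosen with earlier results of these data known. UMIs were summed per class and library and expressed as CPM. Each group is 1 library, so there is no test, no p-value and no replicate. Intervals (95%) are exact Poisson for levels, exact Clopper-Pearson for shares and exact conditional binomial for ratios. They cover counting error only, and the ratio step was tested on simulated data. Classes needed 50 cells in each library, genes 50 UMIs over both, and a call 1.5-fold. All 10 genes are named; of each companion list the text names up to 4 genes by the size of their epithelial difference, plus genes paired with a member. Alternatives covered scaling, weights per cell or cluster, doublets, mitochondrial and UMI filters, thinning to 1000 UMIs, the 5 richest cells, free RNA and clustering. Promoter windows came from RefSeq tables (GRCm38.p6), used for sequence only.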

Additional observations from a re-analysis of the deposited data

Results flagged for a closer look

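Some genes lay on opposite sides of a ratio of 1 in different cells, each with a counting interval that left out 1. None of these differences was tested, since each genotype has 1 library. H2-K1 was higher in plasma-like cells of the library labelled KO (1.33) and lower in neutrophil-like cells (0.771), a quotient of 1.73. H2-D1 was higher in neutrophil-like cells (1.16) and lower in epithelial-like cells (0.861), a quotient of 1.34. In the epithelium the surface cluster was the lower side each time: against the mitotic cluster the quotient was 1.93 for H2-K1 and 1.47 for H2-D1, against the Tgm4 cluster 1.57 for Tapbp, and against the Nox1 Fut9 progenitors 2.52 for Psmb8. The surface cluster is also where cell numbers (86 and 544) and median UMIs (28981 and 2859) differed most, and their part in these values was not tested.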

How the results depend on the processing

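No paired analysis was possible because each genotype has 1 library. Each of 61 ratios of a gene in a class was computed under 10 alternatives, or 11 in epithelial-like cells, where the surface cluster was also left out. The clustering at another resolution was not among them. Of 620 alternative values 586 stayed on the same side of 1, and 42 ratios did so throughout. With cells thinned to 1000 UMIs, 2 called ratios reversed: Nlrc5 in T-like cells (1.18 against 0.636) and Psmb10 in plasma-like cells (0.992 against 1.80). B2m stayed below 1 in epithelial-like cells under all 11 alternatives (0.726 to 0.835). Counts past 1.5-fold moved as follows, and the cause was not tested. In epithelial-like cells 0 genes were lower with equal weight per cell (1 in the report), and 2 were higher without the surface cluster (0), a choice added after the data were seen. In neutrophil-like cells (2 in the report) 0 were lower with ratios centred or with ribosomal and mitochondrial genes left out. There 1 was lower with equal weight per cell, under 10% mitochondrial UMIs, at least 1000 UMIs, or equal weight for the 2 larger clusters. With equal weight for those clusters, no doublet removal or without the 5 richest cells 0 were higher there (1). In monocyte/macrophage-like cells thinning gave 0 lower (1) and 2 higher (1). In T-like cells 0 were lower with centring, equal weight per cell or thinning (1), and 1 was higher with equal weight per cluster or without the 5 richest cells (2). Of gene and epithelial cluster pairs, 2 were lower with equal weight per cell, 3 without doublet removal, 1 with thinning and 3 without the 5 richest cells (0), and 2 were higher with thinning (13). The 5 richest cells held 31.7% of epithelial Nlrc5 UMIs in the WT library.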

Other observations

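Thinned to 1000 UMIs per cell, which left out 150 and 141 epithelial-like cells, the summed H2-K1, H2-D1 and B2m molecules had a median of 8 and 9 per T-like cell, 4 and 5 per monocyte/macrophage-like cell, 3 and 3 per neutrophil-like cell and 1 and 1 per epithelial-like cell. The means were 8.71 and 9.08, 4.22 and 5.31, 3.48 and 3.71, and 1.04 and 1.31, in the same order. Of the epithelial-like cells 43.8% and 39.4% had 0. Epithelial-like means carry the unequal share of the surface cluster, whose own means were 1.94 and 2.21. Conventional dendritic-like cells, too few in the library labelled KO for a comparison (42, against 352), stood at 388 and 277 CPM for Psmb9 and 169 and 102 for Tap1.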
